A study of Mus musculus with 32 samples.

Results

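The 8 libraries described here cover the first 3 h of light in mouse interscapular brown adipose tissue (iBAT), a fat depot of the upper back that makes heat. They are the 4 libraries taken at lights on, Zeitgeber time 0 (ZT0), and the 4 taken 3 h later (ZT3), of 32 libraries in all, and they were chosen by time point alone. The study followed iBAT around the clock in 8 groups of 4 mice, 1 library per mouse, by stranded paired-end sequencing of 100 bases on total RNA. All mice were male C57BL/6J, 10 weeks old, housed at 22 °C on a cycle of 12 h light and 12 h dark with chow always available, and they were not fasted before they were killed with CO2. No mouse carried a transgene or received a treatment, so that time of day is the only labelled difference between ZT0 and ZT3, and each mouse gave 1 time point. Mice rest in the light, so ZT0 closes the active phase and ZT3 lies in the rest phase. Libraries of ZT0, ZT3 and ZT6 were run on lane 2 of the sequencer, and those of ZT12 and ZT15, the first 3 h of dark that serve as a comparison, on lane 3. The mice of a time point are numbered 1 to 4 below, and values are listed in that order.

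Brown adipocytes oxidise lipid and glucose in their mitochondria and release heat through uncoupling protein 1, under control of noradrenaline from sympathetic nerves. Their genes are also under a circadian clock, in which BMAL1 (gene Arntl) and CLOCK drive transcription of Per, Cry and Rev-erb genes (Nr1d1 and Nr1d2), whose proteins in turn hold that drive down. Heat-shock proteins are chaperones that keep other proteins folded. Their transcription is switched on by heat-shock factors when unfolded protein or temperature rises, and body temperature of mice is higher in the active phase than at rest.

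Total counts were 16680401 to 18187410 per library at ZT0 and 16883314 to 17353901 at ZT3. Some libraries stood apart. The summed level of 19 skeletal muscle markers was 6358.5 and 3549.1 CPM (read counts divided by the TMM-scaled library total and brought to one common depth) in ZT0 mice 3 and 4 and 8964.3 CPM in ZT3 mouse 2, against 60.4 to 394.6 CPM in the other 5 libraries. These 3 libraries lay together on the first principal component of the 8, which held 44.8% of the variance. On the second, with 28.2% of the variance, ZT0 mouse 4 (0.072) lay nearer to the ZT3 mice (0.209 to 0.399) than to the other ZT0 mice (-0.489 to -0.383). Brown fat markers were high in every library, with a sum over 12 markers of 6560.9 to 7627.4 CPM at ZT0 and 5954.5 to 6527.8 CPM at ZT3, and no marker was under 1 CPM in all 8 libraries. The 2 ranges do not overlap, yet no single brown fat marker was called.

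Between ZT0 and ZT3, 2097 of 15505 genes tested differed at an adjusted p under 0.05, which is 13.5% of the genes tested. Of these, 1092 were higher at ZT3 (7.04%) and 1005 were lower (6.48%). Calls were near balanced after TMM scaling, with 52.1% higher, while scaling by library size alone gave 67.9% higher (1275 against 602). The median log2 fold change of all genes was 0.01 after TMM scaling, which itself brings most genes near 0, and 0.07 when scaled by library size alone. The mice of the 2 time points did not overlap in 2475 genes (16.0%), 1508 of them called. Most shifts were modest: 318 called genes changed at least 2-fold, 206 upward and 112 downward, and only 24 genes passed a test against a 1.5-fold change. Single mice decided much of the total, since it was 1124 without ZT0 mouse 3 and 3241 without ZT0 mouse 4. It was 1246 and 1251 without ZT0 mice 1 and 2, 1292 without ZT3 mouse 3, and 1432 without the 3 libraries rich in muscle transcripts, which leaves 2 mice at ZT0 and 3 at ZT3.

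**Figure D1:**
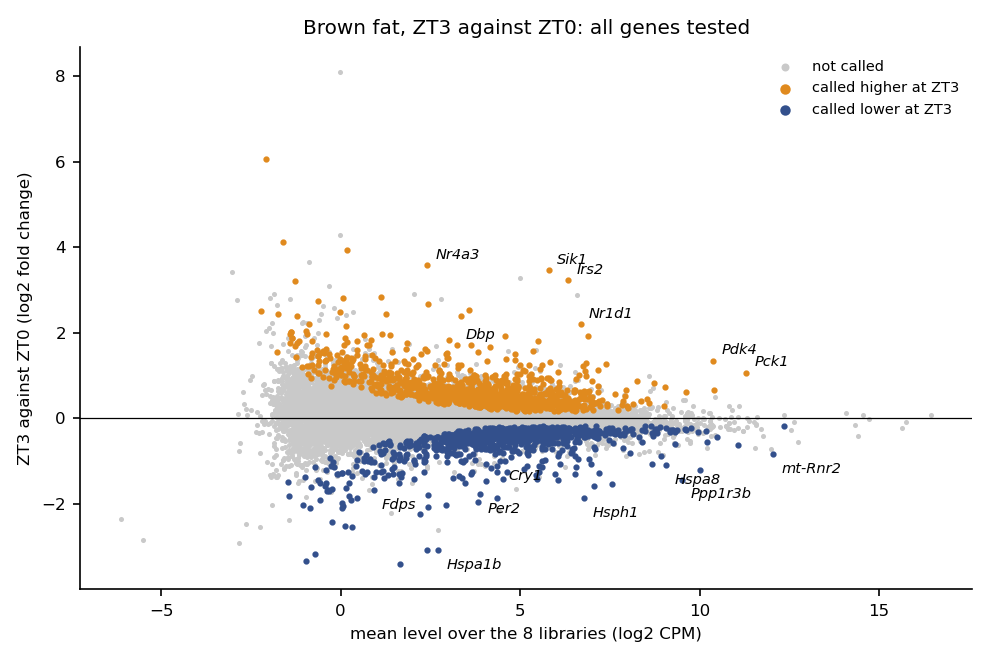
Each point is 1 of the 15505 genes tested, placed by its mean level over the 8 libraries (log2 CPM, horizontal) and its log2 fold change of ZT3 against ZT0 (vertical), with the 1092 genes called higher in orange and the 1005 called lower in blue. Most called genes lie within 2-fold of no change, and Sik1, Irs2 and Nr1d1 stand out above as Hspa1b and Hsph1 do below.

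Among the gene lists with 10 or more members tested, that of heat-shock genes had the largest share called. Of 40 heat-shock proteins and cytosolic chaperones tested, 32 fell and none rose, against 6.48% of all genes called lower, and their median log2 fold change was -0.51 against 0.01 for all genes. In 26 of the 40 the mice did not overlap (16.0% of all genes). The count stayed between 26 and 33 when any single mouse of the 8 was left out, and was 25 without the 3 libraries rich in muscle transcripts.

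Heat-shock factors bind repeats of GAA in alternate orientation, whose core is GAANNTTC, and the promoters of 4 heat-shock genes that fell and hold this core are shown. Sequences are from RefSeq (GRCm38.p6), the last 150 bases before the start site, 5′ to 3′ on the strand of the gene, with the core in capitals. They lie at chr17:34972157-34972306 (minus strand) for Hspa1a, chr17:34959239-34959388 (minus strand) for Hspa1b, chr4:40722318-40722467 (plus strand) for Dnaja1 and chr5:135887769-135887918 (plus strand) for Hspb1.
Hspa1a: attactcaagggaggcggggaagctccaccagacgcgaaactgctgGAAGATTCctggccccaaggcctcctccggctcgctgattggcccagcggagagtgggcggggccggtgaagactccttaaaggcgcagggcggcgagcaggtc
Hspa1b: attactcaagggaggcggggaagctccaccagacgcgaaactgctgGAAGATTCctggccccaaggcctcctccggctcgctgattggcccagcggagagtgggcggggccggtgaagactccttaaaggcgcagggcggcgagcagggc
Dnaja1: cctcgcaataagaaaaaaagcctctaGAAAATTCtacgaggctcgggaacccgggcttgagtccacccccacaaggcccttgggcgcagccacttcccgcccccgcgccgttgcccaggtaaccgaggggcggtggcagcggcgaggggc
Hspb1: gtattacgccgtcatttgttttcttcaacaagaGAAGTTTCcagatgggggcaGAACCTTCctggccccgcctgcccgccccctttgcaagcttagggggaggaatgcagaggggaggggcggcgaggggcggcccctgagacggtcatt
The core starts 104 bases before the start site in both Hspa1a and Hspa1b, whose 150 bases differ at 1 position. It starts at -124 in Dnaja1, and Hspb1 holds a pair at -117 and -97. With 1 start site per gene and 250 bases before it searched on both strands, the core was found in 7 of the 28 heat-shock genes that fell and have an entry (25.0%). Over the whole heat-shock list, called or not, the core was found in 8 of 34 genes with an entry (23.5%). The share among the genes that fell was thus near that of their list. It was found in 540 of all 10908 tested genes with an entry (4.95%), in 6.04% of all genes called lower and in 4.06% of all called higher. Hsph1, Dnajb1 and Chordc1, which fell further than Hspb1, had no match in this window. A match is a description of the letters and not a measured binding site.

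The inducible Hsp70 genes fell furthest of the group. Hspa1a (GRCm38 chr17:34969190-34972156) was at 6.68, 11.8, 15.1 and 4.67 CPM at ZT0 and 0.60, 0.872, 1.39 and 1.65 CPM at ZT3 (log2 fold change -3.08 ± 0.50, adjusted p = 0.000272, edgeR). Its neighbour Hspa1b (chr17:34956436-34959238) was at 7.45, 15.7, 19.4 and 4.45 CPM at ZT0 and 0.720, 1.53, 1.51 and 1.76 CPM at ZT3 (log2 fold change -3.08 ± 0.51, adjusted p = 0.000399). Every ZT0 mouse lay above every ZT3 mouse in both, by 8.44-fold and 8.47-fold in the fit. The coding parts of the 2 genes are near identical, so the split of reads between them is uncertain.

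Hsph1, the Hsp110 nucleotide exchange factor that works with Hsp70, was at 178, 171, 250.3 and 94.7 CPM at ZT0 and 61.0, 28.9, 73.5 and 26.9 CPM at ZT3 (log2 fold change -1.87 ± 0.35, adjusted p = 0.00126). Its 4 ZT0 mice were again all above the 4 ZT3 mice, with ZT0 mouse 4 the lowest of its group. The constitutive Hsp70 gene Hspa8 was at 629, 779.9, 936 and 563 CPM at ZT0 and 498, 227, 346 and 289.9 CPM at ZT3 (log2 fold change -1.10 ± 0.19, adjusted p = 0.00042), also without overlap. Its level at ZT0 was 2.14 times that at ZT3.

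The Hsp40 co-chaperones, which hand clients to Hsp70, fell together. Dnajb1 was at 60.7, 74.0, 69.1 and 45.6 CPM at ZT0 and 24.9, 20.4, 30.0 and 24.0 CPM at ZT3 (log2 fold change -1.33 ± 0.18, adjusted p = 5.57e-05) and Dnaja1 at 122, 142, 165 and 90.8 CPM at ZT0 and 57.2, 39.5, 66.3 and 48.7 CPM at ZT3 (log2 fold change -1.30 ± 0.17, adjusted p = 5.17e-05). Neither overlapped between the time points. The small heat-shock protein gene Hspb1 ranged from 53.6 to 83.4 CPM at ZT0 and 24.1 to 36.0 CPM at ZT3 (log2 fold change -1.14 ± 0.25, adjusted p = 0.00392), and Bag3, which links Hsp70 to small heat-shock proteins, from 38.9 to 62.2 CPM at ZT0 and 28.3 to 39.6 CPM at ZT3 (log2 fold change -0.56 ± 0.12, adjusted p = 0.00363).

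In the Hsp90 machine the inducible gene Hsp90aa1 was at 233, 183, 269 and 146 CPM at ZT0 and 99.9, 69.7, 106 and 69.3 CPM at ZT3 (log2 fold change -1.27 ± 0.28, adjusted p = 0.00392). The constitutive Hsp90ab1 was at 1432, 1281, 1588 and 1315 CPM at ZT0 and 998, 953, 1039.5 and 862 CPM at ZT3 (log2 fold change -0.54 ± 0.14, adjusted p = 0.0111). Both fell without overlap, the first by 2.41-fold and the second by 1.46-fold. Its co-chaperones Stip1, Ahsa1, Chordc1 and Fkbp4 also fell, with log2 fold changes of -0.95 ± 0.18, -0.87 ± 0.15, -1.30 ± 0.17 and -0.72 ± 0.10 (adjusted p = 0.00123, 0.000441, 5.17e-05 and 7.85e-05). Of the cytosolic chaperonin, which folds actin and tubulin, Cct3 fell (-0.47 ± 0.10, adjusted p = 0.0036), as did Cct5 (-0.19 ± 0.05, adjusted p = 0.0236). Hsf1, the gene of the main heat-shock factor, fell slightly, from 29.0 ± 4.26 to 22.4 ± 1.16 CPM (SD, n = 4 each; log2 fold change -0.37 ± 0.08, adjusted p = 0.00239).

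The mitochondrial chaperonin gave 1 call. Hspe1 was called lower (log2 fold change -0.42 ± 0.14, adjusted p = 0.0449), and its partner Hspd1 was not (-0.24 ± 0.10, adjusted p = 0.0943). Hspe1 kept its call only without ZT0 mouse 4 among the 8 fits that left out 1 mouse (highest adjusted p 0.139). Hspa4l and Hspb8 lost theirs in 6 of 8 (highest 0.110 and 0.142) and Cct5 without ZT0 mouse 3, ZT3 mouse 2 or ZT3 mouse 4 (highest 0.0646), while Hspd1 was called without ZT0 mouse 4. The other heat-shock genes named with values kept theirs in all 8.

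Of the RNA-binding proteins whose transcripts rise as temperature falls, Cirbp (chr10:80165985-80172786) rose 2.04-fold, the opposite direction to the heat-shock genes. It was at 14.0, 15.3, 12.0 and 23.2 CPM at ZT0 and 42.5, 34.2, 28.2 and 27.2 CPM at ZT3 (log2 fold change 1.03 ± 0.18, adjusted p = 0.000445), without overlap. Rbm3, the other such gene, was at 32.4, 40.6, 34.1 and 36.3 CPM at ZT0 and 23.8, 22.8, 34.6 and 35.3 CPM at ZT3 and was not called (log2 fold change -0.30 ± 0.12, adjusted p = 0.0994). It was called lower in the fit without ZT3 mouse 4.

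**Figure D2:**
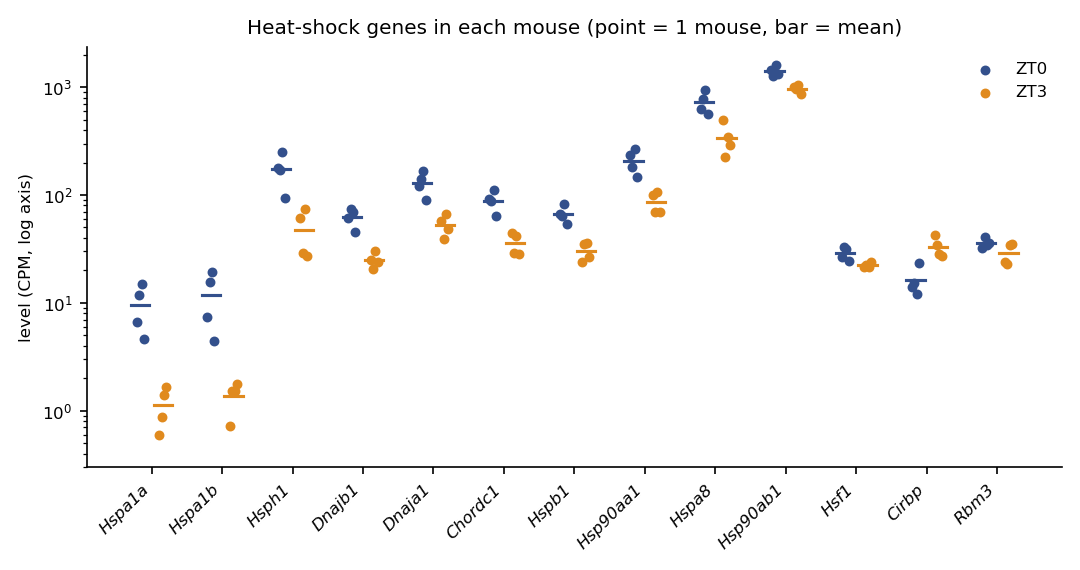
Level in CPM (vertical, log axis) of 11 heat-shock genes and of Cirbp and Rbm3 in each mouse at ZT0 (blue) and ZT3 (orange), with 1 point per mouse and a bar at the group mean. In the heat-shock genes all ZT0 points lie above the ZT3 points, most widely in Hspa1a and Hspa1b, the order is turned in Cirbp, and in Rbm3 the groups overlap.

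The first 3 h of dark gave calls in the other direction. Between ZT12 and ZT15, 20 of the 40 heat-shock genes were called higher (1.97% of all genes were) and none lower (0.935% of all genes were), with a median log2 fold change of 0.58. The difference between the light step and the dark step, tested in the same fit, was called in 1942 genes (12.5% of those tested), 948 positive (6.11%) and 994 negative (6.41%). It was negative in 32 of the 40 heat-shock genes and positive in none, with a median of -1.11. The 2 steps share no mouse, and each lies within 1 lane.

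Hspa1a went from 1.06 ± 0.0962 CPM at ZT12 to 9.78 ± 5.89 CPM at ZT15 (SD, n = 4 each), a rise of 9.15-fold, and the difference between the steps was -6.27 ± 0.71 (log2, adjusted p = 2.09e-06). Hsph1 went from 20.8 ± 5.97 to 127 ± 42.6 CPM, and its steps differed by -4.48 ± 0.50 (adjusted p = 2.48e-06). Cirbp fell in the dark step, from 30.0 ± 3.24 to 13.9 ± 3.05 CPM, with a difference of 2.14 ± 0.25 (adjusted p = 2.48e-06). By ZT6 the mean of Hsph1 was 20.3 ± 4.25 CPM and that of Hspa8 178 ± 20.6 CPM. Of the 40 genes 3 were lower at ZT6 than at ZT3, where 1.99% of all genes differed, among them Hspa8 (log2 fold change -0.93 ± 0.19, adjusted p = 0.00654) and Dnaja1 (log2 fold change -0.64 ± 0.17, adjusted p = 0.0428).

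**Figure D3:**
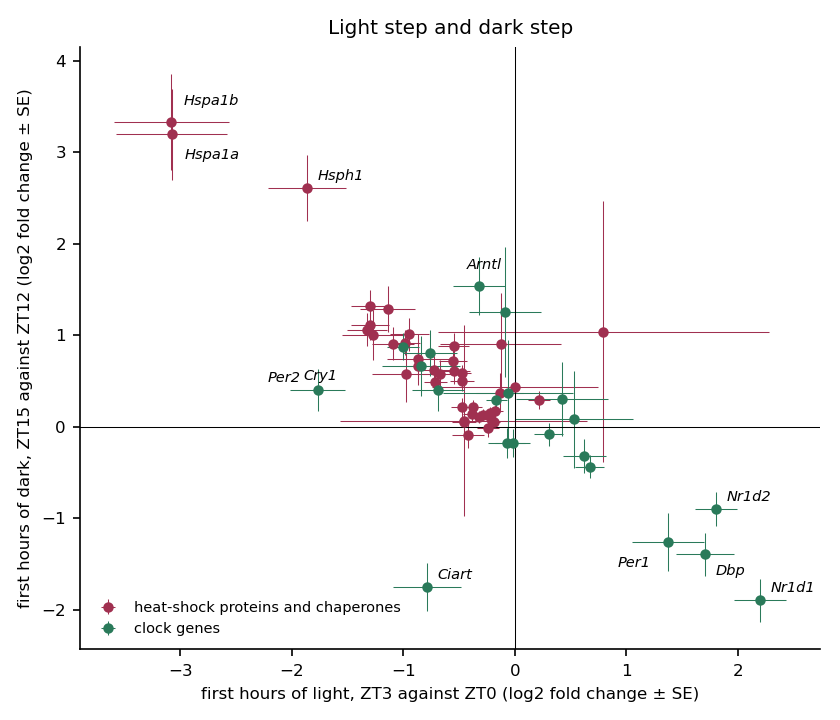
Log2 fold change (± SE) in the first hours of light, ZT3 against ZT0 (horizontal), and in the first hours of dark, ZT15 against ZT12 (vertical), for heat-shock genes and chaperones (red) and clock genes (green). Hspa1a and Hspa1b lie at upper left, lower in the morning and higher in the evening, and Nr1d1, Nr1d2, Dbp and Per1 at lower right.

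Among clock genes the morning was marked by a rise of the Rev-erb repressors. Nr1d1 (chr11:98767932-98775333) was at 18.6, 29.9, 44.0 and 54.4 CPM at ZT0 and 167, 145, 174 and 188 CPM at ZT3 (log2 fold change 2.20 ± 0.23, adjusted p = 5.01e-06). Nr1d2 was at 17.7, 20.0, 16.5 and 26.4 CPM at ZT0 and 79.7, 63.1, 60.0 and 79.3 CPM at ZT3 (log2 fold change 1.80 ± 0.19, adjusted p = 5.01e-06). Their ZT3 mice all lay far above the ZT0 mice, 4.59-fold and 3.49-fold in the fit, and these were the 2 smallest adjusted p of all genes.

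Dbp, an output factor that binds D-box elements, was at 5.39, 4.86, 3.93 and 3.67 CPM at ZT0 and 8.76, 18.0, 15.1 and 16.2 CPM at ZT3 (log2 fold change 1.71 ± 0.26, adjusted p = 0.000176) and went on to 82.5 ± 30.0 CPM at ZT6 (log2 fold change 2.50 ± 0.25, adjusted p = 1.28e-06 for ZT6 against ZT3). No Dbp value of ZT0 reached those of ZT3. Of the other output factors Nfil3, a repressor at the same elements, fell (log2 fold change -0.76 ± 0.24, adjusted p = 0.0367), whereas Tef (-0.07 ± 0.17, adjusted p = 0.81) and Hlf (-0.02 ± 0.16, adjusted p = 0.952) were not called and Hlf and Tef were called higher at ZT6 than at ZT3.

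The Per and Cry repressors split. Per1 was at 10.1, 15.4, 19.3 and 19.8 CPM at ZT0 and 29.9, 28.9, 68.8 and 40.1 CPM at ZT3 (log2 fold change 1.37 ± 0.32, adjusted p = 0.00707). Per2 was at 16.6, 22.8, 37.2 and 14.0 CPM at ZT0 and 7.38, 4.58, 6.44 and 8.17 CPM at ZT3 (log2 fold change -1.77 ± 0.25, adjusted p = 8.92e-05). Cry1 was at 28.7, 25.8, 35.2 and 26.3 CPM at ZT0 and 20.5, 13.1, 12.5 and 11.7 CPM at ZT3 (log2 fold change -1.0 ± 0.15, adjusted p = 8.93e-05). Per1 was thus higher in every ZT3 mouse, while Per2 and Cry1 were lower in every ZT3 mouse. Per3 was called higher (log2 fold change 0.62 ± 0.19, adjusted p = 0.0297), and Cry2 was not called (0.30 ± 0.13, adjusted p = 0.112). Per2 then turned upward. It was at 14.1 ± 0.473 CPM at ZT6, above ZT3 (log2 fold change 1.09 ± 0.25, adjusted p = 0.0189), and reached 109.8 ± 13.0 CPM at ZT15.

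The activators of the loop were not called at ZT3. Arntl was at 30.3, 35.9, 32.1 and 39.4 CPM at ZT0 and 36.3, 24.3, 29.3 and 20.2 CPM at ZT3 (log2 fold change -0.32 ± 0.24, adjusted p = 0.367), and its mice overlapped. Clock and Npas2 were not called either (-0.17 ± 0.10 and -0.08 ± 0.32, adjusted p = 0.23 and 0.893). All 3 then fell from ZT3 to ZT6, Arntl by the most, to 5.72 ± 1.55 CPM (log2 fold change -2.26 ± 0.26, adjusted p = 6.4e-06). Rora, a ROR receptor that activates Arntl, rose from 15.3 ± 1.89 to 24.3 ± 3.22 CPM (SD, n = 4 each; log2 fold change 0.67 ± 0.13, adjusted p = 0.00134).

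Clock genes differed between the light and the dark step in 13 of 21 tested (12.5% of all genes did), by counts of 2 of 3 activators, 4 of 6 repressors, 4 of 5 nuclear receptors and 3 of 7 output factors. For Nr1d1 the difference was 4.10 ± 0.33 (adjusted p = 1.87e-08), since it fell from 124 ± 20.3 to 33.3 ± 2.68 CPM in the dark step. Calls for Nr1d1, Nr1d2, Rora, Dbp, Per1, Per2 and Cry1 held whichever mouse was left out. That for Per3 held in 2 of 8 such fits (highest adjusted p 0.0884) and that for Nfil3 in 4 (highest 0.121).

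The E-box CACGTG, which BMAL1 and CLOCK bind, is shown for a repressor that fell and one that rose. RefSeq (GRCm38.p6) gives the 150 bases before the Cry1 start site at chr10:85185055-85185204 (minus strand) and the 200 before that of Per1 at chr11:69098749-69098948 (plus strand), with the E-box in capitals.
Cry1: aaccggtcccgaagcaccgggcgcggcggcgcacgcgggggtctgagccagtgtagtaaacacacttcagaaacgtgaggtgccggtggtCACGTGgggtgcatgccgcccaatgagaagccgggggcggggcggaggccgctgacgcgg
Per1: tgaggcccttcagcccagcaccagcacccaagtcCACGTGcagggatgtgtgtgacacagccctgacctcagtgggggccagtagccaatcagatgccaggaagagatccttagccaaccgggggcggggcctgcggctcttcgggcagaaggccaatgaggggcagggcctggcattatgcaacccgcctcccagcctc
The match starts 60 bases before the start site in Cry1 and 166 before it in Per1, so both carry the same letters and moved in opposite directions. Within 250 bases the E-box was found in 3 of 5 clock repressors with an entry, and in 889 of all 10908 tested genes with one (8.15%). The shares among genes called higher (8.62%) and called lower (8.46%) were close to that of all genes. The D-box (TTATGTAA or TTACGTAA) was found in 0.56% of all genes, the ROR element core TAGGTCA in 1.55%, the CRE TGACGTCA in 2.58% and the forkhead site GTAAACA in 2.26%. None of the 4 clock nuclear receptors with an entry held any of these letters in the window.

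**Figure D4:**
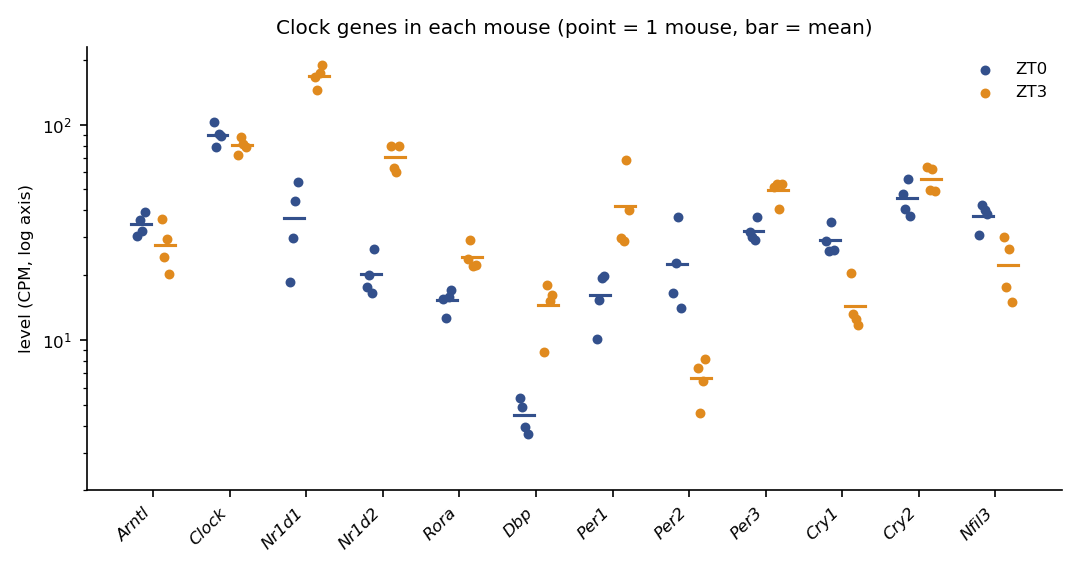
Level in CPM (vertical, log axis) of 12 clock genes in each mouse at ZT0 (blue) and ZT3 (orange), with 1 point per mouse and a bar at the group mean. Nr1d1, Nr1d2, Dbp and Per1 are higher in every ZT3 mouse, Per2 and Cry1 are lower in every one, and the points of Arntl and Clock overlap.

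A minority of early response genes rose in the morning, unevenly between mice. Of 34 immediate early genes tested, which cells switch on within minutes of a stimulus, 8 rose and none fell (7.04% of all genes rose), with a median log2 fold change of 0.73. The count was 4 without ZT0 mouse 1 or ZT3 mouse 3, 5 without ZT0 mouse 2, ZT0 mouse 3 or ZT3 mouse 4, 6 without the 3 libraries rich in muscle transcripts and 3 in a fit of the 8 libraries alone. By ZT6, 5 of the 34 were lower than at ZT3 (1.99% of all genes differed in either direction).

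Sik1, a cAMP-induced kinase that restrains CREB coactivators and is counted with the cAMP pathway rather than among the 34, was at 4.49, 9.78, 11.2 and 11.2 CPM at ZT0 and 53.5, 39.3, 199 and 115 CPM at ZT3 (log2 fold change 3.47 ± 0.81, adjusted p = 0.0066), and its call held in all 8 fits without 1 mouse. Nr4a3, an orphan nuclear receptor, was at 1.03, 1.07, 0.834 and 0.334 CPM at ZT0 and 1.08, 1.36, 29.1 and 7.58 CPM at ZT3 (log2 fold change 3.58 ± 0.83, adjusted p = 0.0063). Egr3, a zinc finger factor, was at 0.385, 0.592, 0.238 and 0.890 CPM at ZT0 and 0.720, 1.20, 8.64 and 4.82 CPM at ZT3 (log2 fold change 2.84 ± 0.83, adjusted p = 0.0245). ZT3 mice 3 and 4 were the highest in all 3 genes. For Sik1 the other ZT3 mice were also above every ZT0 mouse, while for Nr4a3 ZT3 mouse 1 was barely above ZT0 mouse 2 and the call was lost without ZT3 mouse 3 (adjusted p = 0.0702). Egr3 lost its call without ZT0 mouse 1, 2 or 3 or ZT3 mouse 3 or 4 (highest adjusted p 0.119).

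Fos and Egr1, the classic members, varied within both groups and were not called. Fos ranged from 0.642 to 9.95 CPM at ZT0 and 1.32 to 15.9 CPM at ZT3 (log2 fold change 0.64 ± 1.15, adjusted p = 0.747) and Egr1 from 8.94 to 132 CPM at ZT0 and 43.7 to 178 CPM at ZT3 (log2 fold change 0.61 ± 1.17, adjusted p = 0.766). Nr4a1 was at 3.27, 27.1, 5.24 and 55.3 CPM at ZT0 and 29.3, 116, 387 and 139.6 CPM at ZT3 (log2 fold change 2.88 ± 1.37, adjusted p = 0.158), with an overlap between ZT0 mouse 4 and ZT3 mouse 1. Jund, of the AP-1 family, rose from 26.9 ± 8.23 to 49.3 ± 9.06 CPM (SD, n = 4 each; log2 fold change 0.87 ± 0.21, adjusted p = 0.0083). Arc rose too (log2 fold change 1.75 ± 0.48, adjusted p = 0.0159) and was at 1.13 CPM on average at ZT6, below ZT3 (log2 fold change -2.30 ± 0.49, adjusted p = 0.0117). Its call was lost without ZT0 mouse 1 (adjusted p = 0.0619), while Atf3 and Btg2, the remaining 2 of the 8 beside Klf2 and Klf4, kept theirs in 3 and 2 of 8 fits (highest adjusted p 0.272 and 0.187).

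Krüppel-like factors, zinc finger regulators of fat and vessel cells, were called higher in 5 of 13 and lower in none (7.04% of all genes rose), with a median of 0.40. Klf11 was at 4.62, 9.84, 9.95 and 15.3 CPM at ZT0 and 68.9, 27.7, 28.1 and 25.8 CPM at ZT3 (log2 fold change 1.92 ± 0.37, adjusted p = 0.00174), with ZT3 mouse 1 far above the rest. Klf2, induced in endothelium by flow, was at 12.8, 18.6, 15.8 and 13.1 CPM at ZT0 and 26.7, 42.4, 53.3 and 48.4 CPM at ZT3 (log2 fold change 1.5 ± 0.28, adjusted p = 0.00126). Klf4 was at 10.4, 15.3, 15.1 and 13.5 CPM at ZT0 and 18.5, 36.1, 43.1 and 43.8 CPM at ZT3 (log2 fold change 1.38 ± 0.31, adjusted p = 0.00437). None of these 3 overlapped between the time points. Klf9 (0.47 ± 0.11, adjusted p = 0.00464) and Klf3 (0.32 ± 0.08, adjusted p = 0.00566) rose less. Calls of all 5 held in each fit without 1 mouse, and 4 members were called without the 3 libraries rich in muscle transcripts. Klf15 was not called (0.61 ± 0.23, adjusted p = 0.0774) except without ZT0 mouse 4.

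In the β-adrenergic and cAMP pathway 4 of 30 genes rose and none fell (7.04% of all genes rose), with a median of 0.11, and the count was 4 or 5 without any 1 mouse, 6 with DESeq2 and 7 when scaled by library size alone. Besides Sik1 these were Adcy9, an adenylyl cyclase, at 15.0, 10.2, 21.9 and 28.4 CPM at ZT0 and 38.3, 47.9, 46.5 and 47.8 CPM at ZT3 (log2 fold change 1.26 ± 0.22, adjusted p = 0.000569), the CREB coactivator gene Crtc3 (log2 fold change 0.50 ± 0.10, adjusted p = 0.00212) and the phosphodiesterase gene Pde10a (log2 fold change 0.67 ± 0.16, adjusted p = 0.00789). In Adcy9 the 2 groups were well apart. The receptor gene Adrb3 was at 461, 493, 273 and 413 CPM at ZT0 and 249, 213, 249 and 205 CPM at ZT3, with lower values in every ZT3 mouse, and missed the threshold (log2 fold change -0.84 ± 0.29, adjusted p = 0.0551), though it was called without ZT0 mouse 3.

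Genes of insulin signalling and of FOXO factors, which are active when insulin is low, rose in 5 of 30 and fell in 1 (7.04% and 6.48% of all genes did), with a median of 0.19. Irs2, the insulin receptor substrate that FOXO factors induce, was at 8.28, 13.3, 9.35 and 30.5 CPM at ZT0 and 39.1, 39.0, 303 and 200.5 CPM at ZT3 (log2 fold change 3.24 ± 0.77, adjusted p = 0.00755), 9.43-fold higher in the fit. Every ZT3 mouse was above every ZT0 mouse, and ZT3 mice 3 and 4 were several times above ZT3 mice 1 and 2. The difference from the dark step, in which Irs2 went from 32.5 ± 9.95 to 12.1 ± 4.99 CPM (SD, n = 4 each), was 4.65 ± 1.06 (adjusted p = 0.00513).

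Foxo3 was at 13.1, 13.4, 15.8 and 17.9 CPM at ZT0 and 31.9, 21.6, 25.6 and 26.4 CPM at ZT3 (log2 fold change 0.81 ± 0.15, adjusted p = 0.00108), again without overlap. Trib3, a pseudokinase that binds AKT, was at 2.95, 4.44, 4.83 and 4.89 CPM at ZT0 and 14.3, 7.19, 8.18 and 11.9 CPM at ZT3 (log2 fold change 1.27 ± 0.21, adjusted p = 0.000258), all ZT3 mice above all ZT0 mice. Pik3ip1, an inhibitor of PI3 kinase, rose (log2 fold change 1.59 ± 0.48, adjusted p = 0.0309), as did Sesn3, a FOXO target (log2 fold change 0.58 ± 0.17, adjusted p = 0.0231), whereas Ccng2, another FOXO target, fell (log2 fold change -0.50 ± 0.15, adjusted p = 0.0255). Pik3ip1, Sesn3 and Ccng2 were called in 3, 4 and 5 of the 8 fits without 1 mouse (highest adjusted p 0.103, 0.0939 and 0.105), and the number that rose was 3 without ZT0 mouse 2 and 8 without ZT0 mouse 4. The number that fell was 0 without ZT0 mouse 1 or 2 or ZT3 mouse 2.

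Of 17 genes of the fasting response and PPAR targets 4 rose and none fell (7.04% of all genes rose), with a median of 0.07. Pdk4, which shuts glucose carbon out of the mitochondrial pyruvate pathway, was at 461, 824, 519 and 1191 CPM at ZT0 and 1992, 1509, 2033 and 2117 CPM at ZT3 (log2 fold change 1.35 ± 0.36, adjusted p = 0.0154). Pck1, which makes glycerol phosphate for lipid re-esterification in fat, was at 1238, 1547, 843 and 2806 CPM at ZT0 and 2547, 3464, 3713 and 3814 CPM at ZT3 (log2 fold change 1.07 ± 0.34, adjusted p = 0.0373). Their ZT3 mice were uniform, and the spread was at ZT0, where mouse 4 was closest to the ZT3 level in both and lay within it for Pck1.

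Ppara, the fatty acid receptor itself, was at 49.9, 27.3, 44.2 and 145 CPM at ZT0 and 142, 147, 167 and 198 CPM at ZT3 (log2 fold change 1.30 ± 0.36, adjusted p = 0.0205), with ZT0 mouse 4 again at the ZT3 level. Cpt1a, which admits fatty acids to mitochondria, rose from 10.8 ± 1.43 to 16.6 ± 1.28 CPM (SD, n = 4 each; log2 fold change 0.62 ± 0.10, adjusted p = 0.000272) without overlap and in all 8 fits without 1 mouse. Angptl4, an inhibitor of lipoprotein lipase and PPAR target, was at 158, 269.8, 112 and 490.5 CPM at ZT0 and 498, 478, 554 and 521 CPM at ZT3 and missed the threshold (log2 fold change 0.99 ± 0.47, adjusted p = 0.153), but was called without ZT0 mouse 4. Pdk4 lost its call without ZT0 mouse 1 or 3 (highest adjusted p 0.0615), Ppara in 4 of 8 fits (highest 0.0775) and Pck1 in 6 of 8 (highest 0.130). The count of 4 was 1 without ZT0 mouse 1 or 3, 2 without ZT0 mouse 2 or ZT3 mouse 4, and 3 without the 3 libraries rich in muscle transcripts.

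Lipid synthesis moved the other way, in few genes. Of 26 genes of de novo lipogenesis 4 fell and none rose, with a median of -0.47 (6.48% of all genes fell). Pnpla3, a lipid droplet enzyme under SREBP-1c, was at 1482, 1623, 1554 and 1071 CPM at ZT0 and 854, 492, 620.4 and 528 CPM at ZT3 (log2 fold change -1.20 ± 0.31, adjusted p = 0.0126). It was lower in every ZT3 mouse. Mid1ip1, an activator of acetyl-CoA carboxylase, and Mlx, a ChREBP partner, also fell (log2 fold change -1.14 ± 0.33, adjusted p = 0.024 and log2 fold change -0.45 ± 0.14, adjusted p = 0.0334).

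The main enzyme genes of the pathway were not called. Fasn was at 25723, 19981, 36265 and 17025 CPM at ZT0 and 20956, 13035, 21134 and 19667 CPM at ZT3 (log2 fold change -0.40 ± 0.51, adjusted p = 0.623). Acly was at 5520.1, 4046, 7361 and 3275 CPM at ZT0 and 4196, 1577, 3304 and 3153 CPM at ZT3 (log2 fold change -0.72 ± 0.53, adjusted p = 0.373). Both groups overlapped in each. Srebf1, the regulator, had a log2 fold change of -0.47 ± 0.23 (adjusted p = 0.167) and Thrsp of -0.69 ± 0.30 (adjusted p = 0.12). Pnpla3 held in every fit without 1 mouse, and Mid1ip1 and Mlx lost their calls in 6 of 8 (highest adjusted p 0.0790 and 0.176). The number that fell was 1 without ZT0 mouse 3 or ZT3 mouse 4 and 2 without ZT0 mouse 1 or 2 or ZT3 mouse 2 or 3. It was 5 without ZT0 mouse 4 and 0 without the 3 libraries rich in muscle transcripts. The number that rose was 2 without ZT0 mouse 4 and 1 without those 3 libraries.

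Cholesterol synthesis and other SREBP-2 targets fell in 6 of 26 and rose in none (6.48% of all genes fell), with a median of -0.53. Fdps, farnesyl diphosphate synthase, was at 2.82, 2.55, 4.35 and 1.78 CPM at ZT0 and 1.08, 0.708, 0.696 and 1.12 CPM at ZT3 (log2 fold change -1.67 ± 0.40, adjusted p = 0.00631). Msmo1, a sterol demethylase, was at 36.3, 34.0, 41.9 and 26.5 CPM at ZT0 and 18.7, 17.2, 22.2 and 16.5 CPM at ZT3 (log2 fold change -0.90 ± 0.23, adjusted p = 0.0112). Both were lower in each ZT3 mouse. Stard4, a sterol carrier, fell from 18.5 ± 1.70 to 13.2 ± 1.44 CPM (SD, n = 4 each; log2 fold change -0.49 ± 0.13, adjusted p = 0.0118), and Sc5d and Tm7sf2 also fell (-0.94 ± 0.30 and -0.60 ± 0.17, adjusted p = 0.0393 and 0.0207). Tm7sf2 lost its call in 4 of 8 fits without 1 mouse and Sc5d in 7 of 8 (highest adjusted p 0.0764 and 0.164). The count was 3 without ZT0 mouse 3, 10 without ZT0 mouse 4, and 0 without the 3 libraries rich in muscle transcripts.

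Glycogen metabolism was led by the subunits that bring protein phosphatase 1 to glycogen and thereby switch glycogen synthase on. Ppp1r3b was at 1202, 864, 1314 and 857 CPM at ZT0 and 578, 359, 334 and 301 CPM at ZT3 (log2 fold change -1.43 ± 0.33, adjusted p = 0.00604). Ppp1r3c was at 225, 158, 285 and 139 CPM at ZT0 and 80.0, 75.6, 56.2 and 57.8 CPM at ZT3 (log2 fold change -1.58 ± 0.26, adjusted p = 0.000444). All ZT0 mice exceeded all ZT3 mice in both, and the 2 calls held in each of the 8 fits without 1 mouse. Without the 3 libraries rich in muscle transcripts Ppp1r3c was called and Ppp1r3b just missed the threshold. They were the only members that fell of 23 tested (6.48% of all genes fell), with 1 that rose, Pygb (log2 fold change 0.34 ± 0.10, adjusted p = 0.0227), which encodes a glycogen phosphorylase and held in 2 of 8 such fits (highest adjusted p 0.0862). The number that rose was 3 without ZT0 mouse 4, 2 without ZT3 mouse 1 and 0 without any other mouse. The median of the list was -0.07, and lay above 0 when scaled by library size alone. Gys1, the synthase, was not called (0.08 ± 0.09, adjusted p = 0.539). Ppp1r3c rose in the dark step, from 92.1 ± 16.6 to 249 ± 71.1 CPM (SD, n = 4 each), and the steps differed by -3.02 ± 0.37 (adjusted p = 8.12e-06).

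Of 35 genes of glucose uptake and glycolysis 2 rose and 2 fell, near the share of all genes (7.04% and 6.48%), with a median of -0.18. Hk2, the hexokinase of insulin-responsive tissue, was at 652, 458, 776 and 309 CPM at ZT0 and 296, 199.8, 294 and 264 CPM at ZT3 (log2 fold change -1.06 ± 0.32, adjusted p = 0.0304). Slc2a1, the basal glucose transporter GLUT1, was at 4.36, 4.68, 4.47 and 8.29 CPM at ZT0 and 8.46, 9.81, 13.7 and 10.5 CPM at ZT3 (log2 fold change 0.96 ± 0.25, adjusted p = 0.0132). The 2 genes moved in opposite directions without overlap between mice. Of the paired bifunctional enzymes that set fructose 2,6-bisphosphate, Pfkfb3 rose (log2 fold change 0.83 ± 0.26, adjusted p = 0.0372) and Pfkfb4 fell (log2 fold change -0.81 ± 0.17, adjusted p = 0.00305). Pfkfb4 held in each fit without 1 mouse, and Hk2, Slc2a1 and Pfkfb3 in 3, 5 and 4 of 8 (highest adjusted p 0.121, 0.0573 and 0.177). The number that rose was 0 without ZT0 mouse 1 or ZT3 mouse 3 and 1 without ZT0 mouse 2 or 3 or ZT3 mouse 4, and the number that fell was 4 without ZT0 mouse 4 and 1 without ZT0 mouse 1 or 3, ZT3 mouse 2, 3 or 4 or the 3 libraries rich in muscle transcripts.

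Nuclear genes of the respiratory chain were lower by a small amount in many members. Of 37 nuclear genes of complex I 22 fell and none rose, against 6.48% of all genes, with 36 of 37 below 0 and a median of -0.26. Of 46 nuclear genes of complexes II to V 18 fell, with a median of -0.22, and of 77 mitochondrial ribosomal proteins 23 fell, with a median of -0.22. By contrast 1 of 81 cytosolic ribosomal proteins fell, with a median of -0.06 that lay above 0 when scaled by library size alone. That count was 5 without ZT0 mouse 4, 0 without ZT0 mouse 3 or ZT3 mouse 2, and 3 without the 3 libraries rich in muscle transcripts. Beside these falls, the brown adipocyte markers had a median of -0.29, with the lower sums at ZT3 given above, and the fibroblast markers had higher sums at ZT3 (845.4 to 1320.7 CPM against 509.1 to 758.2 CPM at ZT0), and the part of cell composition in the result was not tested.

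The shifts of single genes were small in size. Ndufb4, of complex I, was at 35.4, 33.2, 27.2 and 27.6 CPM at ZT0 and 23.5, 26.3, 21.1 and 23.8 CPM at ZT3 (log2 fold change -0.38 ± 0.09, adjusted p = 0.00412). Uqcrb, of complex III, was at 414, 385, 338 and 313 CPM at ZT0 and 298, 267, 244 and 261 CPM at ZT3 (log2 fold change -0.44 ± 0.10, adjusted p = 0.00415). Cox7c, of complex IV, was at 33.1, 34.2, 25.9 and 25.4 CPM at ZT0 and 21.9, 20.2, 21.9 and 20.7 CPM at ZT3 (log2 fold change -0.48 ± 0.12, adjusted p = 0.00801). In each the 4 ZT0 mice lay above the 4 ZT3 mice, though the nearest values were close, and the 3 calls held in every fit without 1 mouse. Ndufb7 lost its call without ZT3 mouse 4 (adjusted p = 0.0537; -0.39 ± 0.10 with all mice).

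The complex I count was 6 without ZT3 mouse 3 or 4, 7 without ZT0 mouse 2, 9 without ZT0 mouse 1, 10 without ZT0 mouse 3 and 12 when scaled by library size alone. That of complexes II to V was 3 without ZT3 mouse 3, 5 without ZT0 mouse 1 or 2 or ZT3 mouse 4, 7 without ZT0 mouse 3, 10 without ZT3 mouse 2 and 5 when scaled by library size alone. That of mitochondrial ribosomal proteins was 4 without ZT0 mouse 2, 7 without ZT0 mouse 1 or 3 or ZT3 mouse 3, 9 and 11 without ZT3 mice 4 and 2, 38 without ZT0 mouse 4 and 14 when scaled by library size alone. A fit of the 8 libraries alone gave 5, 5 and 13 for the 3 lists. Without the 3 libraries rich in muscle transcripts the 3 counts were 20, 16 and 16. The dark step gave no call in these 3 lists in either direction, and its difference from the light step was called in 4 of 37, 3 of 46 and 3 of 77 members, all negative, while 12.5% of all genes were called in the difference (6.41% negative) and 1.97% and 0.935% higher and lower in the dark step.

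Of 15 mitochondrially encoded genes only the 2 ribosomal RNAs fell (6.48% of all genes fell), and the median of the list was -0.16. mt-Rnr2, the large subunit rRNA, was at 4052, 6511, 6992 and 4045 CPM at ZT0 and 3230.0, 2587, 2719.5 and 3535 CPM at ZT3 (log2 fold change -0.84 ± 0.17, adjusted p = 0.00218). mt-Rnr1, the small subunit rRNA, was at 2309, 3212, 3009 and 1816 CPM at ZT0 and 1714, 1741, 1477 and 1849.7 CPM at ZT3 (log2 fold change -0.61 ± 0.15, adjusted p = 0.00797). Both calls held without any 1 mouse and without the 3 libraries rich in muscle transcripts, though ZT0 mouse 4 was below the highest ZT3 mouse for mt-Rnr1. In the dark step both rose, mt-Rnr2 from 2081 ± 222 to 4392 ± 673 CPM (SD, n = 4 each), with a difference between the steps of -1.92 ± 0.24 (adjusted p = 7.21e-06). Messenger RNAs such as mt-Nd1 (0.08 ± 0.08, adjusted p = 0.493) and mt-Cytb (-0.09 ± 0.08, adjusted p = 0.502) were not called. How ribosomal RNA was removed from these libraries is not given in the sources used here.

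Proteasome subunits fell in 8 of 37 and rose in none (6.48% of all genes fell), and the median was -0.20. Psmd12 was at 80.0, 79.6, 78.8 and 64.3 CPM at ZT0 and 62.9, 52.8, 56.3 and 51.7 CPM at ZT3 (log2 fold change -0.44 ± 0.10, adjusted p = 0.00532), with every ZT0 mouse above every ZT3 mouse, and held in all fits without 1 mouse. The count was 3 without ZT0 mouse 3, 4 without ZT0 mouse 2, 5 without ZT0 mouse 1 or ZT3 mouse 2, 3 or 4, 16 without ZT0 mouse 4 and 4 without the 3 libraries rich in muscle transcripts. In the tricarboxylic acid cycle 4 of 20 fell (6.48% of all genes fell; median -0.17), among them Idh3g (log2 fold change -0.31 ± 0.08, adjusted p = 0.015). That count was 0 without ZT0 mouse 1, ZT0 mouse 3 or ZT3 mouse 2, and 1 without ZT3 mouse 3 or 4, without the 3 libraries rich in muscle transcripts or when scaled by library size alone.

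**Figure D5:**
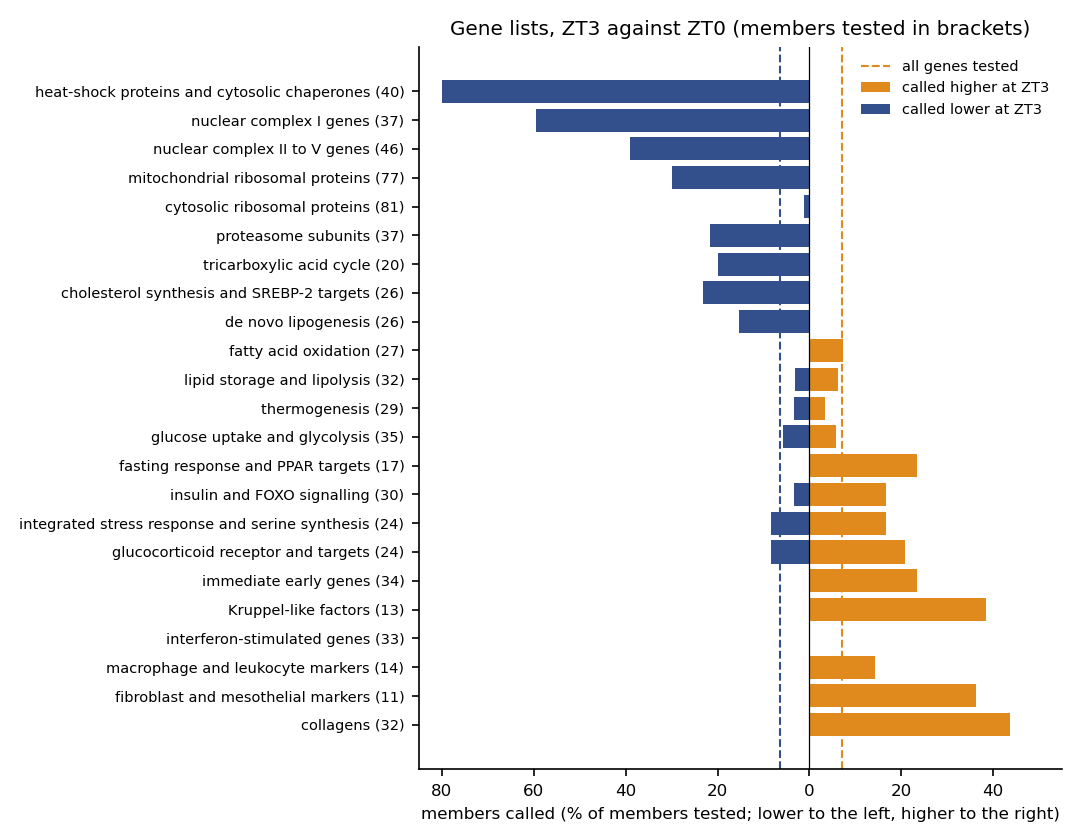
Share of the tested members of 23 of the gene lists called lower (blue, to the left) or higher (orange, to the right) at ZT3, in percent, with the number tested in brackets and dashed lines at the share of all 15505 genes tested (6.48% lower and 7.04% higher). Of the lists drawn, heat-shock genes and nuclear complex I genes reach furthest to the left, and collagens, Krüppel-like factors and fibroblast markers furthest to the right.

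Some matrix and stromal genes rose at ZT3. Of 32 collagens tested 14 rose and none fell (7.04% of all genes rose), with a median of 0.51, and 14 differed positively from the dark step (6.11% of all genes did). Col3a1, a fibrillar collagen, was at 169, 224, 208 and 259 CPM at ZT0 and 366, 502, 391 and 329.8 CPM at ZT3 (log2 fold change 0.89 ± 0.25, adjusted p = 0.0214). Col6a3, of the beaded filaments around fat cells, was at 50.6, 64.3, 64.5 and 68.4 CPM at ZT0 and 93.6, 94.6, 85.1 and 90.2 CPM at ZT3 (log2 fold change 0.55 ± 0.14, adjusted p = 0.00838). Both were higher in all ZT3 mice. Col1a1 was just past the threshold and its partner Col1a2 just short of it (log2 fold change 1.02 ± 0.34, adjusted p = 0.049 and log2 fold change 0.87 ± 0.30, adjusted p = 0.0566), while Col4a1 of basement membranes rose less (log2 fold change 0.29 ± 0.08, adjusted p = 0.0227). In bulk tissue more cells of a type and more RNA per cell cannot be told apart.

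Some markers of stromal cells also rose, but their list overlaps that of the collagens, and its called members Col1a1 and Col3a1 are counted in both. The summed level of the fibroblast and mesothelial markers, which include 3 of the collagens, was 509.1 to 758.2 CPM at ZT0 and 845.4 to 1320.7 CPM at ZT3, and 4 of 11 tested were called higher and none lower (7.04% and 6.48% of all genes were), with none of the 11 under 1 CPM in all 8 libraries. Pdgfra, the receptor that defines these cells, was at 10.6, 11.1, 11.9 and 13.2 CPM at ZT0 and 19.1, 21.1, 18.3 and 17.2 CPM at ZT3 (log2 fold change 0.69 ± 0.18, adjusted p = 0.0128), with no overlap, and Dcn, decorin, also rose (log2 fold change 0.63 ± 0.21, adjusted p = 0.0458). Lum was not called (0.36 ± 0.18, adjusted p = 0.18). The part of cell composition in the collagen result was not tested.

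Collagen calls depended on the mice: the count was 2 without ZT0 mouse 1, 4 without ZT0 mouse 3, 8 without ZT0 mouse 2 or ZT3 mouse 2 or 3, and 7 without the 3 libraries rich in muscle transcripts. The fibroblast marker count was 1 without ZT0 mouse 1, ZT0 mouse 3 or ZT3 mouse 2, 2 without ZT0 mouse 2 or ZT3 mouse 1 or 3, and 0 without those 3 libraries. Col6a3 and Pdgfra held in every fit without 1 mouse, Col3a1 in 5 of 8, Col4a1 in 3, Dcn in 2 and Col1a1 in 1 (highest adjusted p 0.0737, 0.105, 0.132 and 0.135).

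All 14 macrophage and leukocyte markers tested lay above 0, with a median of 0.75, but only 2 were called higher (7.04% of all genes were), Mrc1 (log2 fold change 0.99 ± 0.28, adjusted p = 0.0229) and Csf1r (log2 fold change 0.88 ± 0.28, adjusted p = 0.0348). Their summed level was 84.8 to 122.1 CPM at ZT0 and 119.4 to 200.2 CPM at ZT3, so that ZT0 mouse 4 overlapped ZT3 mouse 4. Cd68 (0.49 ± 0.26, adjusted p = 0.206) and the pan-leukocyte gene Ptprc (0.61 ± 0.31, adjusted p = 0.186) were not called. The count was 0 without any of ZT0 mice 1, 2 or 3, ZT3 mouse 2 or the 3 libraries rich in muscle transcripts, 1 without ZT3 mouse 3 and 6 in a fit of the 8 libraries alone. Lymphoid markers summed to 10.5 to 16.7 CPM at ZT0 and 15.3 to 25.4 CPM at ZT3, with 5 of the 12 tested under 1 CPM in every library.

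Other cell types gave few or no calls. Of 19 endothelial and pericyte markers 3 rose and 1 fell (7.04% and 6.48% of all genes did), and their sums overlapped (2014.5 to 2434.0 CPM at ZT0 and 2197.9 to 2479.3 CPM at ZT3). Emcn, an endothelial sialomucin, fell (log2 fold change -0.48 ± 0.09, adjusted p = 0.000859) and the pericyte receptor Pdgfrb rose (log2 fold change 0.51 ± 0.11, adjusted p = 0.00355), each in all fits without 1 mouse. The tight-junction gene Cldn5 and Egfl7 also rose (0.91 ± 0.30 and 0.42 ± 0.14, adjusted p = 0.0447 and 0.0423), and both lost the call in 5 of 8 such fits. None of 19 skeletal muscle markers, 9 blood markers and 6 white adipocyte markers was called. The blood sum was 475.0 to 861.5 CPM at ZT0 and 269.7 to 552.7 CPM at ZT3. Of 8 nerve markers tested 1 rose, Pmp22 (log2 fold change 0.95 ± 0.28, adjusted p = 0.029), with sums of 144.4 to 187.9 CPM at ZT0 and 151.0 to 429.0 CPM at ZT3, and it lost the call without ZT0 mouse 1 or 3 or ZT3 mouse 3 (highest adjusted p 0.137).

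Few genes of the thermogenic programme were called. Of 29 thermogenic genes 1 rose and 1 fell (7.04% and 6.48% of all genes did), with a median of -0.03. Without ZT0 mouse 4 the counts were 2 and 3, and the number that fell was 0 without ZT0 mouse 2 or ZT3 mouse 3 and 2 without ZT0 mouse 3 or without the 3 libraries rich in muscle transcripts. Ucp1, uncoupling protein 1, was at 2929, 2346, 3116 and 2027 CPM at ZT0 and 2219, 2153, 1972 and 2192 CPM at ZT3 (log2 fold change -0.29 ± 0.29, adjusted p = 0.533), and the groups overlapped. Dio2, which makes active thyroid hormone, ranged from 20.5 to 30.0 CPM at ZT0 and 12.4 to 62.2 CPM at ZT3 (log2 fold change 0.20 ± 0.71, adjusted p = 0.889). The creatine transporter gene Slc6a8 rose from 30.9 ± 7.26 to 57.2 ± 2.85 CPM (SD, n = 4 each; log2 fold change 0.89 ± 0.22, adjusted p = 0.00805) in every fit without 1 mouse, and the muscle-type oxidase subunit Cox7a1 fell (log2 fold change -0.37 ± 0.10, adjusted p = 0.0191) in 6 of 8 (highest adjusted p 0.0785). The fatty acid elongase gene Elovl3 was at 48.2, 30.5, 58.4 and 2.95 CPM at ZT0 and 8.94, 5.61, 4.76 and 12.0 CPM at ZT3 and was not called (log2 fold change -2.16 ± 1.05, adjusted p = 0.167): ZT0 mouse 4 was far below its group and below all ZT3 mice.

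Lipid uptake and storage held few calls as well. In the lipoprotein lipase (LPL) pathway 2 of 18 rose and 1 fell (7.04% and 6.48% of all genes did), and Lpl itself was not called (2501 to 3565 CPM at ZT0 and 2831 to 3507 CPM at ZT3; log2 fold change 0.04 ± 0.12, adjusted p = 0.845). Lrp1, a receptor for lipoprotein remnants, rose from 191 ± 29.9 to 305 ± 46.5 CPM (SD, n = 4 each; log2 fold change 0.67 ± 0.17, adjusted p = 0.0083). The number of LPL pathway genes that rose was 1 in 6 of the 8 fits without 1 mouse and without the 3 libraries rich in muscle transcripts, and the number that fell was 0 without ZT0 mouse 3 or those 3 libraries and 2 without ZT0 mouse 4. Of 32 genes of lipid storage and lipolysis 2 rose and 1 fell (7.04% and 6.48% of all genes did), the droplet protein gene Hilpda, Gpat3 of glycerolipid synthesis, and Lpin1, a phosphatidate phosphatase (1.04 ± 0.35, 0.71 ± 0.22 and -0.60 ± 0.18, adjusted p = 0.0464, 0.0303 and 0.0278), each lost in 5 or 6 of the 8 fits without 1 mouse. In fatty acid oxidation 2 of 27 rose (7.04% of all genes did), Cpt1a and the carnitine transporter gene Slc22a5 (log2 fold change 0.71 ± 0.18, adjusted p = 0.0112), in all such fits.

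Of brown fat transcription factors 5 of 24 rose and 2 fell (7.04% and 6.48% of all genes did). Zfp516, a cold-induced activator of Ucp1, was at 10.3, 10.1, 12.1 and 11.2 CPM at ZT0 and 16.7, 17.5, 17.6 and 18.9 CPM at ZT3 (log2 fold change 0.69 ± 0.12, adjusted p = 0.000365), with tight groups that do not overlap. Thra, the thyroid hormone receptor, rose (log2 fold change 0.39 ± 0.09, adjusted p = 0.0075), as did Cebpa (log2 fold change 0.45 ± 0.15, adjusted p = 0.0423), and Ebf3 fell (log2 fold change -0.72 ± 0.16, adjusted p = 0.00507). Pparg (-0.36 ± 0.17, adjusted p = 0.141) and Ppargc1a (0.28 ± 0.28, adjusted p = 0.521) were not called, Pparg only in the fit without ZT3 mouse 1. Cebpa kept its call in 2 of 8 fits (highest adjusted p 0.162). The number that rose was 2 without ZT0 mouse 1, 2 or 3, 3 without ZT3 mouse 2 or 4 and 8 without ZT0 mouse 4, and the number that fell was 1 without ZT0 mouse 1 or 3 or ZT3 mouse 3 or 4 and 4 without ZT0 mouse 4.

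Stress programmes other than heat shock were mixed. In the integrated stress response, which ATF4 runs when translation is held back, 4 of 24 rose and 2 fell (7.04% and 6.48% of all genes did). Sesn2, an inhibitor of mTORC1, was at 4.62, 8.00, 10.7 and 5.51 CPM at ZT0 and 8.16, 13.4, 32.1 and 31.3 CPM at ZT3 (log2 fold change 1.56 ± 0.41, adjusted p = 0.0142), highest in ZT3 mice 3 and 4, and Atf4 itself was not called (-0.36 ± 0.18, adjusted p = 0.179). Of 31 genes of the endoplasmic reticulum and unfolded protein response 2 rose and 2 fell, near the share of all genes (7.04% and 6.48% of all genes did). Manf, a secreted stress factor of that compartment, was at 28.1, 30.6, 31.5 and 25.1 CPM at ZT0 and 18.0, 20.3, 18.3 and 15.6 CPM at ZT3 (log2 fold change -0.68 ± 0.10, adjusted p = 0.000136), and its chaperone gene Hspa5 fell less (log2 fold change -0.25 ± 0.07, adjusted p = 0.0242). Nfe2l2, the NRF2 factor, was the 1 called lower of 31 antioxidant genes (6.48% of all genes were; log2 fold change -0.52 ± 0.13, adjusted p = 0.00906). None of 33 interferon-stimulated genes was called, with a median of 0.24. Sesn2 lost its call without ZT0 mouse 1 or ZT3 mouse 3 or 4 (highest adjusted p 0.0583), Hspa5 without ZT0 mouse 2 or 3 or ZT3 mouse 2 (highest 0.0731) and Nfe2l2 without ZT0 mouse 1 (0.0506). The number of antioxidant genes called lower was 0 without ZT0 mouse 1, 5 without ZT0 mouse 4 and 2 without the 3 libraries rich in muscle transcripts. The number of integrated stress genes that rose was 2 without ZT0 mouse 1, ZT3 mouse 3 or those 3 libraries, and the number that fell was 0 without ZT0 mouse 3 and 1 without any other mouse but ZT0 mouse 4. For genes of the endoplasmic reticulum the number that rose was 0 without ZT0 mouse 1, 2 or 3 or ZT3 mouse 4, 1 without ZT3 mouse 1, 2 or 3 and 4 without ZT0 mouse 4, and the number that fell was 1 without ZT0 mouse 2 or 3 or ZT3 mouse 2 and 6 without ZT0 mouse 4.

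Glucocorticoid receptor targets, which corticosterone drives towards the start of activity in mice, rose in 5 of 24 and fell in 2 (7.04% and 6.48% of all genes did), and 11 of the 24 differed between the light and dark steps (12.5% of all genes), 9 positively. Besides Per1 and Klf9 the risers were Errfi1, Ddit4 and Pim3 (0.99 ± 0.27, 0.87 ± 0.27 and 1.09 ± 0.32, adjusted p = 0.018, 0.0326 and 0.0245), called in 5, 4 and 4 of 8 fits without 1 mouse. The widely used targets Fkbp5 (0.03 ± 0.38, adjusted p = 0.968) and Tsc22d3 (-0.36 ± 0.17, adjusted p = 0.162) and the receptor gene Nr3c1 (0.12 ± 0.09, adjusted p = 0.378) were not called. The count of risers was 2 without ZT0 mouse 1, ZT0 mouse 3 or ZT3 mouse 3, 3 without ZT3 mouse 2 and 1 without the 3 libraries rich in muscle transcripts. The number that fell was 1 without ZT0 mouse 1 or 3, ZT3 mouse 2, 3 or 4, or those 3 libraries.

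Among secreted factors 4 of 23 rose and none fell (7.04% of all genes rose). Angptl2 was at 110.1, 85.5, 96.3 and 85.1 CPM at ZT0 and 161, 149.9, 137 and 139 CPM at ZT3 (log2 fold change 0.64 ± 0.13, adjusted p = 0.00224). Cfd, the fat cell protease adipsin, rose by the largest amount in CPM of these, from 1043 ± 112 to 1661 ± 372 CPM (SD, n = 4 each; log2 fold change 0.67 ± 0.20, adjusted p = 0.0254). Gdf10 and Cxcl14 also rose (1.28 ± 0.34 and 0.54 ± 0.16, adjusted p = 0.0142 and 0.0246), and adiponectin (Adipoq) was not called (0.15 ± 0.10, adjusted p = 0.313). Cfd and Cxcl14 held in 4 of 8 fits without 1 mouse (highest adjusted p 0.0867 and 0.0861), Gdf10 in all but that without ZT0 mouse 3 (0.0602), and Angptl2 in all. The count was 2 without ZT0 mouse 1 or 3 or ZT3 mouse 2 and 1 without the 3 libraries rich in muscle transcripts.

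Some of the furthest movers belong to none of these groups. Nfe2l3, a CNC family transcription factor, was at 1.99, 1.72, 0.775 and 1.33 CPM at ZT0 and 8.82, 8.12, 10.4 and 9.70 CPM at ZT3 (log2 fold change 2.67 ± 0.39, adjusted p = 0.000111). It had returned to 2.36 ± 0.512 CPM at ZT6 (log2 fold change -1.97 ± 0.38, adjusted p = 0.00437). Its 4 ZT3 mice were far above the ZT0 mice and close to each other, unlike those of the early response genes. Dusp8, a MAP kinase phosphatase, was at 0.963, 1.90, 4.35 and 5.73 CPM at ZT0 and 22.1, 9.05, 18.2 and 19.5 CPM at ZT3 (log2 fold change 2.40 ± 0.52, adjusted p = 0.00383). Apold1, an early response gene of endothelium, was at 2.44, 3.55, 2.44 and 5.62 CPM at ZT0 and 7.08, 15.1, 32.8 and 26.7 CPM at ZT3 (log2 fold change 2.53 ± 0.51, adjusted p = 0.00231). Gem, a small GTPase, and Mmp9, a gelatinase, rose too (log2 fold change 2.45 ± 0.52, adjusted p = 0.00308 and log2 fold change 1.97 ± 0.34, adjusted p = 0.000403).

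Itgb8, an integrin subunit, Vit, a matrix protein, and Sfrp2, a secreted modulator of Wnt signals, were under 6 CPM in every mouse (2.82 ± 0.74, 2.17 ± 0.63 and 1.95 ± 0.63, adjusted p = 0.0126, 0.0236 and 0.0409). They held in 6, 4 and 2 of 8 fits without 1 mouse. In level, the largest rises among called genes after Pck1 and Pdk4 were in Cfd, Gsn, which severs actin, Fam13a and Pfkfb3. Fam13a, at 442, 361, 379.8 and 385 CPM at ZT0 and 855, 564, 501 and 702 CPM at ZT3 (log2 fold change 0.74 ± 0.18, adjusted p = 0.00639), was higher in every ZT3 mouse and again lower at ZT6 (log2 fold change -0.80 ± 0.18, adjusted p = 0.0141), and held in every fit without 1 mouse, while Gsn (log2 fold change 0.62 ± 0.20, adjusted p = 0.0402) held in 3 of 8.

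Downward, Mir6392, an annotated microRNA gene whose reads cannot be told apart from those of any gene that overlaps it, was at 7.12, 9.07, 9.71 and 7.90 CPM at ZT0 and 4.14, 1.53, 1.86 and 2.29 CPM at ZT3 (log2 fold change -1.79 ± 0.37, adjusted p = 0.00237). Hephl1, a ferroxidase, was at 4.17, 6.34, 16.4 and 3.78 CPM at ZT0 and 1.38, 1.96, 2.26 and 0.882 CPM at ZT3 (log2 fold change -2.24 ± 0.60, adjusted p = 0.0145). The phospholipase gene Pla2g4b (log2 fold change -1.90 ± 0.36, adjusted p = 0.00105), the ciliary gene Ttc25 (log2 fold change -1.86 ± 0.58, adjusted p = 0.0339), the keratin gene Krt7 (log2 fold change -1.85 ± 0.60, adjusted p = 0.0377) and the predicted genes Gm17530 (log2 fold change -2.51 ± 0.52, adjusted p = 0.00237) and Gm43570 (log2 fold change -2.09 ± 0.59, adjusted p = 0.0194) made up the rest of the 12 lowest chosen among called genes without overlap, beside the heat-shock genes, Per2 and Fdps. Hephl1 and Gm43570 kept their calls in 6 of 8 fits without 1 mouse, Ttc25 in 3 and Krt7 in 1. Among called genes, the 6 largest falls in CPM were those of the mitochondrial rRNAs, Pnpla3, Ppp1r3b and Hsp90ab1, given above, and Atp5b of ATP synthase, 5567 ± 381 to 4896 ± 187 CPM (SD, n = 4 each; log2 fold change -0.19 ± 0.06, adjusted p = 0.0391), which held in 2 of 8.

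Outside the heat-shock and clock genes, among the widest differences between the light and dark steps were those of Bsn, a presynaptic scaffold, and Shroom1, a cytoskeletal protein, on the negative side. Bsn was at 4.88, 6.70, 11.0 and 0.612 CPM at ZT0 and 0.660, 0.327, 0.696 and 0.470 CPM at ZT3, and Shroom1 at 13.3, 13.8, 19.2 and 2.34 CPM at ZT0 and 3.42, 1.85, 3.60 and 3.06 CPM at ZT3. Their differences between steps were -4.72 ± 0.92 and -3.42 ± 0.84 (log2, adjusted p = 0.00121 and 0.00824). ZT0 mouse 4 lay at the ZT3 level in both, while the other 3 ZT0 mice were far above it. On the positive side stood Irs2, Sik1 and the predicted gene Gm37310 (3.92 ± 1.00 for the last, adjusted p = 0.0109). Gm37310 was not called between ZT0 and ZT3 alone (adjusted p = 0.109).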

How the data were processed

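RNA of iBAT from 32 mice was sequenced, and the 8 libraries of ZT0 and ZT3, all on lane 2, are compared here with time points as the labels give them. The authors aligned the reads with GSNAP (2017-09-11) to mm10 and counted reads per Ensembl gene with HTSeq (0.6.1). The deposited values are raw counts, with no normalization by the authors, and whether strand was used in counting is not stated, so overlapping and antisense genes are uncertain. The table held 50686 genes, 20100 of them without a count in any library. Symbols were found for 50376, and gene coordinates are from GENCODE on GRCm38.

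Genes were filtered with filterByExpr (15505 kept, 99.9% of counts), scaled with TMM and tested with edgeR (4.0.16, R 4.3.3) by its quasi-likelihood test (robust) on all 32 libraries with time point as the only factor. Contrasts were ZT3 against ZT0, the same minus ZT15 against ZT12, the dark step alone and ZT6 against ZT3. P-values were adjusted by Benjamini-Hochberg over all tested genes, with a threshold of 0.05. Levels are TMM-scaled CPM. Errors of log2 fold changes are SE, and those of levels are SD over 4 mice. Depth was 16680401 to 18187410 counts per library of ZT0 and ZT3. The spread behind SE and p-values was pooled over all 32 libraries, and the median SE of called genes was 0.125 (log2).

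Genes named are members of the written lists, the 12 highest and 12 lowest log2 fold changes among called genes that average 1 CPM or more and do not overlap between mice, the 6 largest rises and 6 largest falls in CPM among called genes, and the 5 highest and 5 lowest differences of steps. The comparison, the lists and the genes shown were chosen with earlier results of these data known. Some genes that this rule names are not reported here, though counts over lists include them. No test was run over a list. The fit was tested on simulated counts. Alternatives were other scalings, filters and thresholds, DESeq2 (1.42.0), subsets of libraries, a replicate block, and each mouse left out, and 2 on muscle transcripts were chosen after seeing the data. No pair of libraries of a time point differed as little as counting noise (lowest chi-square per gene 8.44).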

Additional observations from a re-analysis of the deposited data

Results flagged for a closer look

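Values in which 1 of 4 mice stood far from the other 3 of its time point are listed here, by a gap test on each named gene. Chance alone flags about 1 in 20 groups of 4, and the test ran at both time points on 154 called and 53 not called genes. The list below is no longer than that rate gives, and the causes were not tested. At ZT3, mouse 1 was the highest in Cry1 (20.5 CPM), Klf11 (68.9 CPM), Mid1ip1 (94.9 CPM), Crtc3 (29.8 CPM) and Pla2g4b (0.900 CPM) and the lowest in Adcy9 (38.3 CPM). ZT3 mouse 3 was the lowest in Per3 (40.5 CPM) and the highest in Fosb (6.38 CPM).

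At ZT0, mouse 1 was the lowest in Atf3 (1.03 CPM) and Cct5 (116 CPM) and the highest in mt-Cytb (65844 CPM). ZT0 mouse 3 was the lowest in Gdf10 (1.43 CPM) and the highest in Fkbp5 (10.9 CPM) and Bhlhe40 (281 CPM). ZT0 mouse 4, which lay on the ZT3 side of the second principal component, was the highest in Slc2a1 (8.29 CPM), Mki67 (4.78 CPM) and Col11a1 (0.111 CPM) and the lowest in Psmd12 (64.3 CPM). The first hours of light and of dark differed in 1942 genes by the test of the difference of steps, which is why that count stands here as well.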

How the results depend on the processing

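No log2 fold change of a called named gene changed sign under any alternative (0 of 3226). These genes were called in the same libraries, so few changes of sign could arise. Of the 154 called named genes, 74 were called in all 8 fits without 1 mouse. Leaving out 1 mouse gave 1124 to 3241 calls, 569 to 1650 higher and 555 to 1591 lower, and 1442 to 2553 for the difference of steps. A threshold of 0.01 gave 724 calls (393 higher, 331 lower) and 838 for the difference. The 8 libraries alone gave 1146 (636 higher, 510 lower), and a test against a 1.5-fold change 24 (10 higher, 14 lower). Scaling by library size alone gave 602 lower. DESeq2 gave 2356, no filter 1422, lane 2 alone 1547, and muscle transcripts as a covariate 2495. Without the 3 libraries rich in muscle transcripts 719 genes were called higher, and 63 of the 154 named genes lost their call. Deviations of mice with the same replicate number at ZT0 and ZT3 correlated at 0.308, -0.517, -0.382 and -0.378. Libraries rich in muscle transcripts carry different numbers at ZT0 and ZT3, so these values cannot decide whether the numbers pair mice. With the number as a block the counts were 2025 (1045 higher, 980 lower) and 1883. Nothing in the labels says how mice were housed together, so p-values measure the spread between mice within time points, pooled over all 32 libraries.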
